A study of Mus musculus with 40 samples.

Results

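The collagen chain genes are those whose mouse symbol has the form Col, a type number, the letter a and a chain number, such as Col1a1 or Col4a2. The rule found 44 of them among the 52636 genes of the deposited count table for mouse brown adipose tissue. They divided into 11 fibrillar chains, 8 basement membrane chains and 25 others, and 35 of the 44 had enough counts to be tested. Of those 35, 10 were fibrillar, 8 belonged to the basement membrane class and 17 were others.

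Bulk RNA was sequenced from the brown fat of 40 male C57BL/6 mice in 8 groups of 5. Every animal received a single intraperitoneal dose of antibody, either an anti-ragweed isotype control at 40 mg/kg or anti-Jag1 together with anti-Jag2 at 20 mg/kg each, and mice given that mixture are called Jag antibody mice below. Tissue was taken at 15 h, 5 d or 7 d. At 7 d there were also groups of control and Jag antibody mice that had been injected each day, starting on day 2, with thyroxine (T4, 1 ug per g of body weight) and triiodothyronine (T3, 0.05 ug per g). No group went without an antibody, so every comparison below is with the isotype control or between mice given the same antibody, and no untreated level was measured. The animals were 10 to 12 weeks old by the design text and 10 to 14 weeks old by the treatment protocol. The series is concerned with Notch signalling in the thyroid, and the comparisons ask how brown fat differs after Jag blockade and whether thyroid hormone changes that difference.

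Collagens are the main structural proteins of the extracellular matrix. Each is a triple helix wound from chains, which may come from the same gene or from separate genes. Fibrillar types I, III and V assemble into the fibres that give connective tissue its strength, while type IV forms the sheet-like basement membrane that surrounds blood vessels and every fat cell. Type VI makes a fine beaded filament network beside those sheets and is abundant in adipose tissue. In fat most fibrillar and type VI collagen is made by fibroblast-like progenitor cells, and type IV comes from endothelial cells and adipocytes as well. Jag1 and Jag2 are ligands of the Notch receptors, through which neighbouring cells signal to each other, and T3 is the active thyroid hormone that binds nuclear receptors.

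The libraries held 12217623 to 36511893 counts in genes, and 8750 to 239593 of these fell in collagen genes. The tissue label fitted its markers: all 8 brown adipocyte markers were counted in every mouse, with Ucp1, the uncoupling protein of thermogenesis, never under 12504 counts. Skeletal muscle RNA was present to a very uneven degree. The summed level of its 8 markers ran from 0.878 to 175926 CPM (counts scaled to library size) over the 40 mice, and the muscle score used below is the mean log2 CPM of those markers. Libraries also differed in how counts depended on transcript length, and 3 of them (control mice 2 and 5 at 5 d and control mouse 4 at 7 d) had a length slope under -0.4 on the log2 scale. This matters here because the tested collagen genes are long, with a median exonic length of 7464 bases against 3810 for the genes tested, so fold changes are also given with offsets for length and GC content where these move a value.

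Sequence is shown for Col1a2 and Col3a1, fibrillar genes that several results below rest on, and for the gene pair that shares a start region. Col1a2 lies on the forward strand at chr6:4504814-4541544 and Col3a1 on the forward strand at chr1:45311538-45349706 (GRCm38, GENCODE M21), and the stretches below are taken from the 250 bases before their RefSeq start sites (GRCm38.p6), without bases that a GENCODE exon covers. For Col1a2 these are 123 bases at chr6:4505370-4505492, between exons of a longer transcript, and for Col3a1 all 250 bases at chr1:45311288-45311537, upstream of the gene. Capitals mark a GC box (GGGCGG) or a TATA box (TATAAA), which were searched on both strands together with the CCAAT box (CCAAT) and AGGTCA, a motif bound by nuclear receptors. None of these motifs overlaps another in the printed stretches. They are matches of letters only, and the TATAAA of Col3a1 begins at -117 from the start site. For the last line, 22 bases of the forward strand at chr8:11312805-11312826 are printed, in which the start sites of Col4a1 (reverse strand, chr8:11198423-11312826) and Col4a2 (forward strand, chr8:11312805-11449287) lie 21 bases apart, head to head.
Col1a2: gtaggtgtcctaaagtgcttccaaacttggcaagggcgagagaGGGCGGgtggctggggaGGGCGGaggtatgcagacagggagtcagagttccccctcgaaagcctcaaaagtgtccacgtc
Col3a1: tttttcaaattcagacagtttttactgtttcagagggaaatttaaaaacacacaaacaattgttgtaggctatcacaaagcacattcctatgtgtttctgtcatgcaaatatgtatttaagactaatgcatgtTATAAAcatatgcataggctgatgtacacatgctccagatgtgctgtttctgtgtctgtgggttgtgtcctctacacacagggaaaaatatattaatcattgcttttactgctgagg
Col4a1 and Col4a2: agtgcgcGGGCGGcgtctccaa

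Of the 44 members, 35 matched a RefSeq promoter window, a stretch of 300 bases that reaches from 250 before to 50 after the start, and they had 38 windows between them. A GC box was found in 60.5% of collagen windows and in 35.7% of all 32851 windows, whose median GC content was 52.7% against 59.8% for collagen. CCAAT was found in 34.2% of collagen windows and in 37.4% of all, TATAAA in 13.2% and 13.6%, and AGGTCA in 21.1% and 16.3%. Neither the Col1a2 nor the Col3a1 window held AGGTCA, nor did those of Col4a1 and Col4a2. The remaining type IV genes are also arranged as head-to-head pairs: Col4a3 and Col4a4 start 71 bases apart on chromosome 1, and Col4a5 and Col4a6 start 1308 bases apart on chromosome X. Col3a1 and Col5a2 are neighbours on chromosome 1 with 24.614 kb between their ends. The Col4a1 and Col4a2 gene models overlap by 22 bases, where reads could not be assigned to a gene without strand information.

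Compared per length, as CPM per kb of mRNA, Col3a1 had the highest mean level of any collagen gene in 7 of the 8 groups. In control mice at 7 d it averaged 73.5 ± 28.0 CPM per kb (SD, n = 5), ahead of Col4a1 at 45.1 ± 10.9, Col4a2 at 30.1 ± 7.36, Col1a2 at 27.2 ± 8.29, Col6a1 at 19.9 ± 4.06 and Col6a2 at 18.0 ± 3.84. Each of these neighbours in the order overlapped the next between mice. In Jag antibody mice at 7 d without hormone the order differed: Col4a1 led with 34.0 ± 14.4 CPM per kb, then Col4a2 with 23.4 ± 10.4, and Col3a1 came after them with 18.7 ± 8.50, with overlap between neighbours here too. In control mice given hormone Col3a1 averaged 406 ± 87.9 CPM per kb and did not overlap Col4a1, the next gene, at 151 ± 34.0.

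The summed level of the tested chains separated some groups and not others. It averaged 283 ± 49.9 CPM per kb in control mice at 7 d and 1231 ± 269 in control mice given hormone (SD, n = 5), with ranges of 214 to 333 and 825 to 1516. Jag antibody mice averaged 165 ± 38.3 without hormone and 502 ± 82.0 with it, from 101 to 203 and from 431 to 622. Every hormone-treated mouse was thus above every 7 d mouse given the same antibody without hormone, and at 7 d each Jag antibody group lay wholly below its control group. At 5 d control mice averaged 831 ± 394 and Jag antibody mice 332 ± 101, and their ranges overlapped. At 15 h the means were 288 ± 32.5 and 297 ± 50.9. As these are bulk samples, fewer cells of a type and less RNA per cell cannot be told apart.

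The make-up of that sum also varied. Col1a1, Col1a2 and Col3a1 together made up 39.1% ± 7.48 of it in control mice at 7 d, 23.4% ± 9.53 in Jag antibody mice at 7 d, 52.0% ± 2.43 in control mice given hormone and 40.8% ± 11.4 in Jag antibody mice given hormone (SD, n = 5). Col4a1 and Col4a2 together took 26.9% ± 6.11, 34.4% ± 11.4, 19.4% ± 2.22 and 27.8% ± 9.81 in the same order. The share of type VI chains had group means from 14.1% to 16.9%. These shares were not tested, and they come from the same counts as the genes below.

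**Figure D1:**
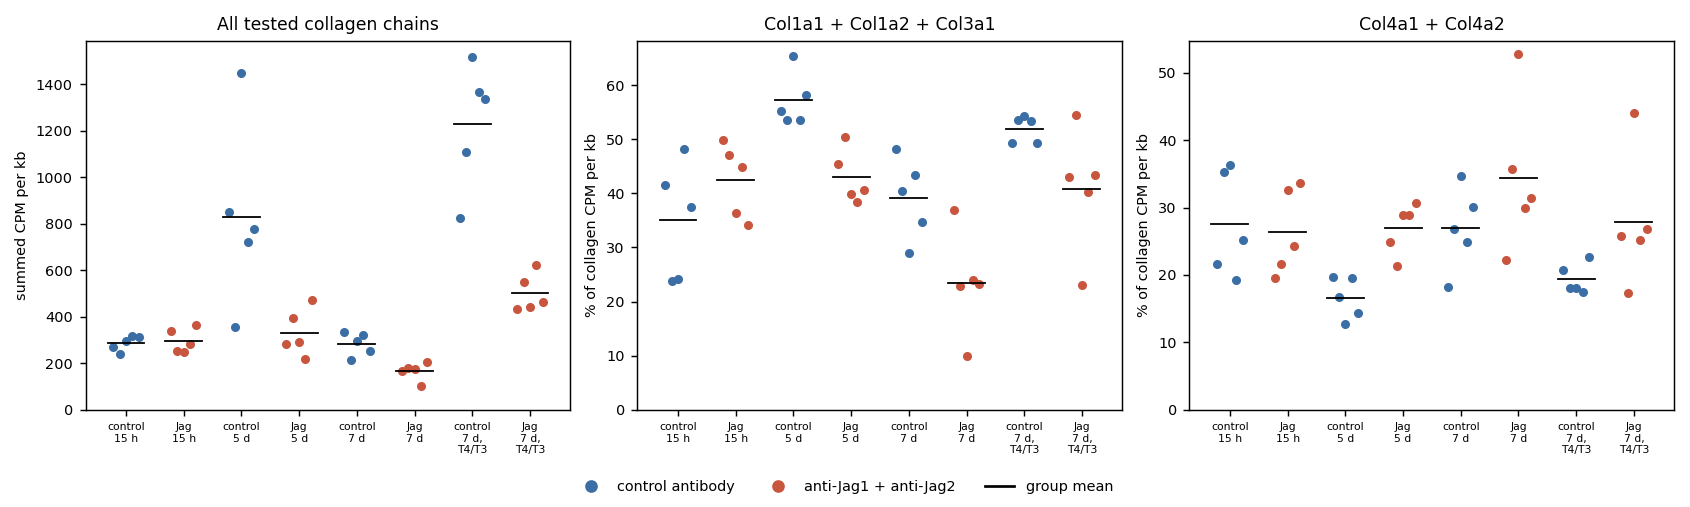
Collagen level and make-up in each of the 40 mice, from TMM-scaled CPM per kb of mRNA. The left panel gives the sum over the 35 tested chains and the other panels give the percent of that sum held by Col1a1, Col1a2 and Col3a1 or by Col4a1 and Col4a2, with dots for mice and lines for group means. Control mice given T4 and T3 lie from 825 to 1516 CPM per kb in the left panel, above all mice without hormone at 7 d.

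Thyroid hormone in control mice came with higher collagen transcripts in all 3 classes. At 7 d, 20 of the 35 tested genes were higher in hormone-treated control mice and 1 was lower, in a comparison where 20.3% of all 17079 genes tested were higher and 22.9% lower (edgeR quasi-likelihood test, adjusted p under 0.05). The median log2 fold change was 1.62 over the tested collagen genes and 0.04 over all genes tested. The counts were 6 of 10 fibrillar genes, 5 of 8 basement membrane genes and 9 of 17 others, with class medians of 2.21, 1.54 and 1.35. For 18 collagen genes every treated mouse was above every untreated one, which held for 14.6% of all genes tested.

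Among the fibrillar chains, Col1a1, which encodes the alpha 1 chain of type I collagen, stood at 69.8, 49.6, 70.2, 71.4 and 68.6 CPM in the 5 untreated control mice. With hormone it stood at 281, 432, 682, 761 and 544 CPM, so the groups did not overlap. Its log2 fold change was 3.03 (standard error 0.43, adjusted p = 6.27e-06), or 8.19-fold. Col1a2, the partner chain of type I, rose by 2.42 (standard error 0.39, adjusted p = 2.49e-05) on the log2 scale. Col3a1, the only chain of type III collagen, stood at 645, 314, 299, 494 and 294 CPM without hormone and 1522, 2185, 2886, 2358 and 2332 CPM with it. Every treated mouse was above every untreated one, and the log2 fold change was 2.46 (standard error 0.37, adjusted p = 9.82e-06). The type V chains, which sit inside type I fibres and set their width, moved the same way, by 2.30 for Col5a1, 2.21 for Col5a2 and 1.62 for Col5a3. Col11a2, a cartilage fibril chain present at a few CPM here, was the gene that fell, with a log2 fold change of -1.35 (standard error 0.48, adjusted p = 0.0239). It stood at 2.03, 2.99, 14.1, 3.67 and 5.07 CPM without hormone and 1.51, 3.17, 2.30, 2.33 and 1.67 CPM with it, so the groups overlapped and control mouse 3 alone was over 10 CPM. Leaving out 1 mouse at a time ended the Col11a2 call in 3 of 10 cases.

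In the basement membrane class, Col4a1, which pairs with Col4a2 in the type IV network common to nearly all basement membranes, stood at 259, 221, 414, 300.5 and 297 CPM in untreated control mice and 716, 849.9, 1157, 986 and 1271 CPM with hormone. Again no treated mouse fell within the untreated range, and the log2 fold change was 1.74 (standard error 0.31, adjusted p = 6.86e-05). Col4a2 rose by 1.52 and Col4a5, a chain of another type IV network, by 1.55. Col15a1 and Col18a1 encode the multiplexins, proteoglycan collagens of the basement membrane zone, and rose by 2.13 (standard error 0.31, adjusted p = 7.67e-06) and 1.97 (standard error 0.26, adjusted p = 1.90e-06). Col4a3, Col4a4 and Col4a6 did not pass the test, with log2 fold changes of 0.41, 0.76 and 0.97.

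Type VI and the fibril-associated chains followed. Col6a3 rose by 2.36 (standard error 0.26, adjusted p = 2.21e-07), Col6a1 by 1.94 and Col6a2 by 1.84. Col14a1, a collagen that binds the surface of type I fibres, had the largest log2 fold change of the tested members, 3.14 (standard error 0.51, adjusted p = 2.79e-05), from 4.85, 4.48, 3.19, 1.39 and 3.54 CPM to 17.2, 37.4, 41.2, 14.6 and 45.7 CPM. Col12a1, its close relative, rose by 2.86 (standard error 0.52, adjusted p = 9.14e-05). It stood at 7.63, 12.5, 15.9, 8.48 and 11.6 CPM without hormone and 49.8, 95.8, 71.2, 59.1 and 133 CPM with it, again without overlap. Col16a1 and Col28a1 rose by 1.92 and 2.25, whereas Col8a1, a short chain network collagen of vessel walls, had a log2 fold change of 0.46 (standard error 0.30, adjusted p = 0.217).

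**Figure D2:**
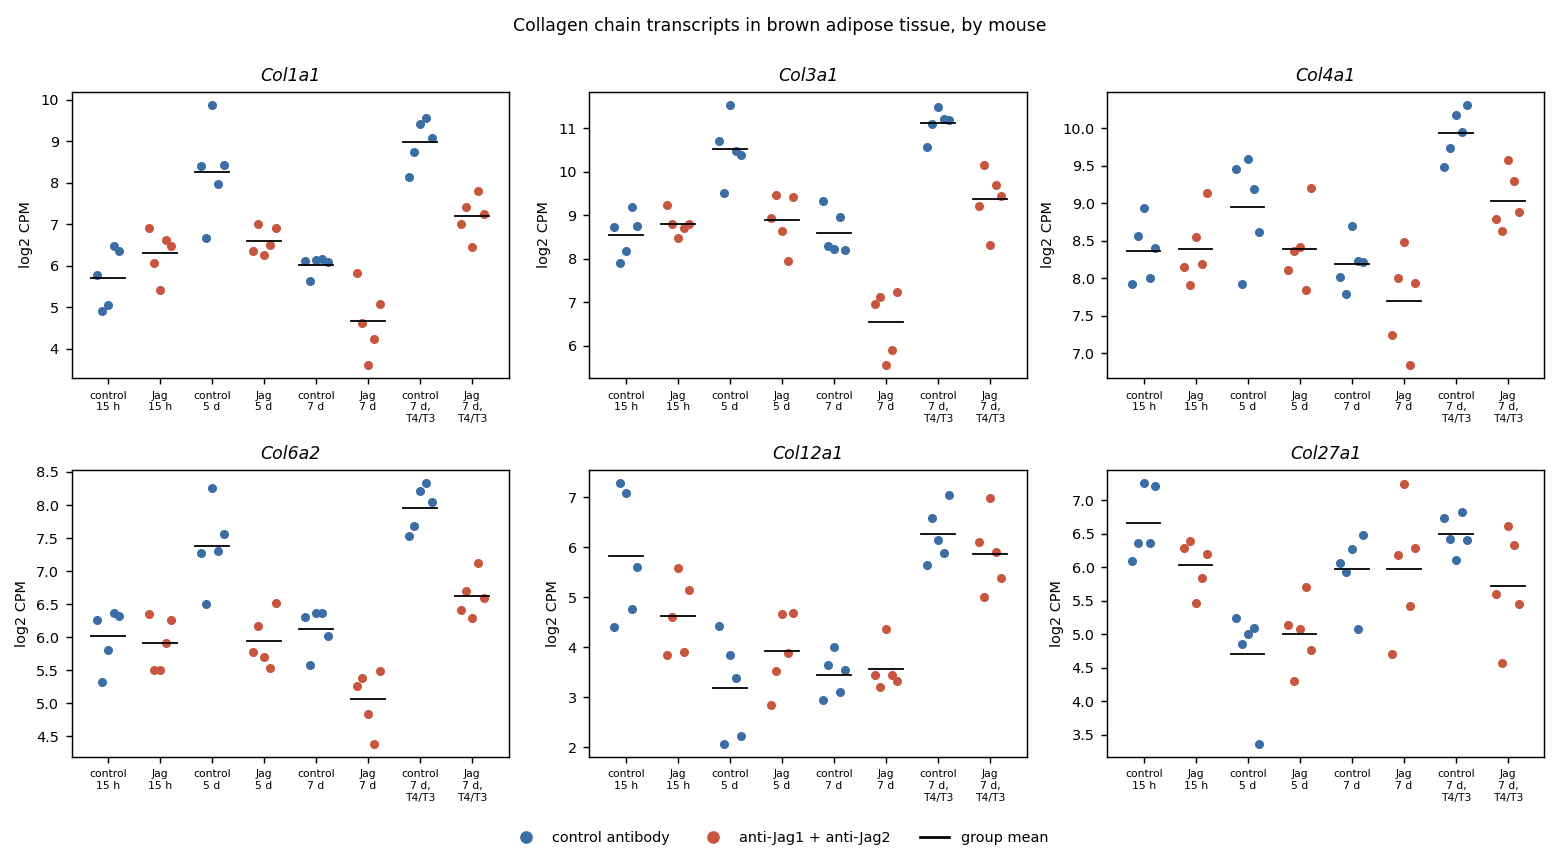
log2 CPM of 6 collagen chains in each of the 40 mice, by group, with dots for mice and lines for group means. In the Col1a1 panel the control mice given T4 and T3 lie above the other 7 d groups, and in the Col3a1 panel the Jag antibody mice at 7 d without hormone lie below all other mice.

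Genes that make and handle collagen changed with hormone as well. Of 12 genes for procollagen processing and crosslinking, 11 were higher in treated control mice and none lower, with a median of 1.69. They included Loxl2, a lysyl oxidase that crosslinks fibres, at 2.16 (standard error 0.26, adjusted p = 5.77e-07), and Adamts14, which trims procollagen, at 2.23 (standard error 0.42, adjusted p = 0.000133). Of 20 genes for folding, modification and secretion, 11 were higher and 1 lower, among them P3h2, a collagen prolyl hydroxylase, at 1.97 and the chaperone Fkbp10 at 1.68. The gene that was lower was Ppib, a prolyl isomerase, at -0.86. Of 15 tested basement membrane partners 10 were higher, led by Nid2 (nidogen) at 2.37 and Hspg2 (perlecan) at 2.21, and of 12 fibril partners 8 were higher, led by Tnc (tenascin C) at 4.21, Vcan (versican) at 3.19 and Fn1 (fibronectin) at 2.78. Of 12 genes for collagen breakdown 6 were higher, including Mmp14 at 2.03, and Pepd, a dipeptidase for proline-containing peptides, was lower at -1.42.

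Markers of several cell types moved in the same comparison. Of 10 fibroblast and progenitor markers 4 were higher, including Pdgfra at 2.08, though their summed level ran from 239 to 421 CPM without hormone and 389 to 807 CPM with it and so overlapped. The summed endothelial markers ran from 442 to 833 and 859.7 to 1178 CPM, the macrophage and myeloid markers from 112 to 274 and 551 to 1111 CPM, and the 8 proliferation genes from 3.40 to 7.36 and 66.8 to 149 CPM. In each of those 3 lists no treated mouse overlapped an untreated one. The brown adipocyte markers went the other way, 32890.4 to 70012 CPM without hormone and 10662 to 17187 CPM with it. The part of these cell types in the collagen levels was not tested.

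Transcript length moved with this comparison too, since length slopes ran from -0.582 to -0.0669 in untreated and 0.0357 to 0.268 in treated control mice. With length and GC offsets the collagen median was 1.15 in place of 1.62, and 19 genes were higher and 1 lower, where 19.8% of all genes were higher and 18.9% lower with these offsets. Col1a1 was then at 2.56, Col3a1 at 1.80 and Col4a1 at 1.24, and of the called genes Col6a6 alone lost its call. Muscle scores overlapped, -1.31 to 11.1 against -1.96 to 10.4.

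**Figure D3:**
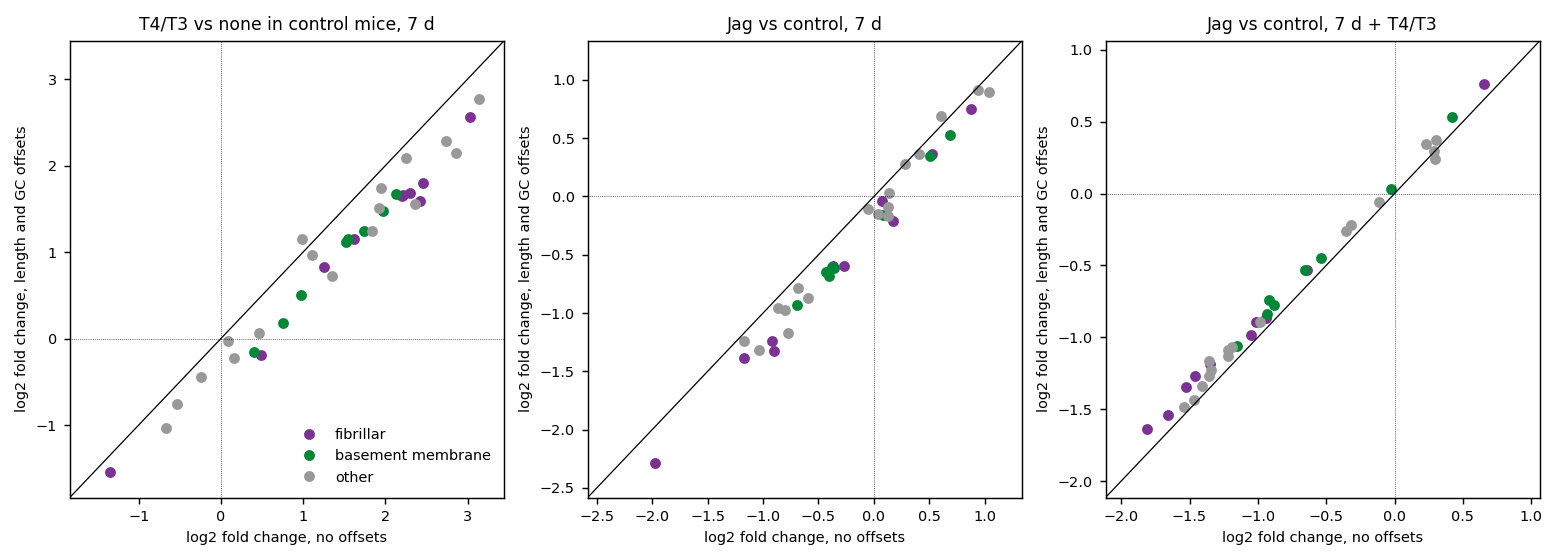
log2 fold changes of the 35 tested collagen genes without offsets (x axis) and with length and GC offsets (y axis) in 3 comparisons, coloured by class, with the diagonal marking equal values. In control mice given hormone the points lie mostly below the diagonal, with a median of 1.15 on the y axis against 1.62 on the x axis, and in the antibody comparison at 7 d they lie mostly below it as well.

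In Jag antibody mice, hormone was accompanied by higher transcript levels of chains in each class. Of the 35 tested genes 16 were higher and none lower, where 4.29% of all genes tested were higher and 5.21% lower. The collagen median was 0.71 against -0.04 for all genes, and 13 collagen genes had no overlap between the groups, as did 5.23% of all genes in that direction. By class, 5 of 10 fibrillar, 5 of 8 basement membrane and 6 of 17 other chains were higher. Col3a1 stood at 125, 139, 46.9, 59.8 and 149.8 CPM in Jag antibody mice without hormone and 595, 1143, 320.4, 821 and 696 CPM with it. Every treated mouse exceeded every untreated one, and the log2 fold change was 2.78 (standard error 0.37, adjusted p = 9.73e-06), or 6.87-fold. Col12a1 rose by 2.42 (standard error 0.51, adjusted p = 0.00249), Col1a1 by 2.39 (standard error 0.42, adjusted p = 0.000353) and Col6a3 by 1.91 (standard error 0.25, adjusted p = 9.73e-06). Smaller changes that passed were those of Col1a2 (1.87), Col5a1 (1.86), Col15a1 (1.67), Col5a2 (1.53), Col6a2 (1.53), Col6a1 (1.40), Col4a1 (1.26), Col4a2 (1.23) and Col18a1 (0.97) on the log2 scale. Col5a3 and Col16a1 did not pass in Jag antibody mice, at 0.36 (standard error 0.33, adjusted p = 0.489) and 0.44 (standard error 0.31, adjusted p = 0.365). Length slopes ran from -0.164 to 0.0286 without hormone and 0.0425 to 0.203 with it. With length and GC offsets 15 collagen genes passed in place of 16, where 2021 of all 17079 genes passed in place of 1622. The collagen median was then 0.70. Among the 15 was Col7a1, at 1.25 to 14.3 CPM without hormone and 0.690 to 4.23 CPM with it, which overlapped.

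Processing and crosslinking genes were higher in 6 of 12 cases here, with Loxl2 at 1.82 (standard error 0.25, adjusted p = 1.36e-05), and basement membrane partners in 8 of 15, with Lamc3, a laminin chain, at 2.80. Of the fibril partners 5 of 12 were higher, with Vcan at 3.28 and Bgn (biglycan) at 1.66. Cell type markers moved in these mice too. Of the 8 proliferation genes 7 were higher with hormone, with a median of 3.22, and their summed level ran from 2.69 to 10.3 CPM without hormone and 14.0 to 77.0 CPM with it, without overlap. Of 10 macrophage and myeloid markers 3 were higher, with sums of 143 to 618 and 433 to 1742 CPM, and of 10 fibroblast and progenitor markers 3 were higher, with sums of 217 to 431 and 304 to 648 CPM. Of 8 brown adipocyte markers 2 were lower, with sums of 16035 to 38719 and 14928 to 21021 CPM, and those last 3 sums overlapped between the groups. Endothelial markers were higher in 1 of 8 cases, and 2 of 10 pericyte and smooth muscle markers were higher and 2 lower. Their part in the collagen levels was not tested. When only 7 d mice with a muscle score under 3 were kept, which left 3 Jag antibody mice in each group, 8 collagen genes were higher in place of 16. Of all 18021 genes tested there, 288 passed, in place of 1622 of 17079 in the main fit.

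Whether hormone changed the antibody difference was tested as an interaction at 7 d. None of the 35 collagen genes passed, and 0.00586% of all genes did, which is 1 gene. At an unadjusted p under 0.05 there were 4 of 35 collagen genes in edgeR, where 2103 of all 17079 genes tested were also under it. DESeq2 and limma called no collagen gene. Those 4, named here after their values were seen, were Col16a1 with an interaction of -1.48 (standard error 0.44, adjusted p = 0.374), Col18a1 with -1.01 (standard error 0.35, adjusted p = 0.374), Col5a3 with -1.26 (standard error 0.47, adjusted p = 0.374) and Col14a1 with -1.68 (standard error 0.68, adjusted p = 0.374), each in the direction of a more negative antibody difference under hormone. With length and GC offsets 2 collagen genes in place of 4 had an unadjusted p under 0.05, with no count over all genes given here. The collagen median of the interaction was then -0.19 in place of -0.50. The 95% interval for Col1a1 was -1.76 to 0.47 around -0.64, and for Col3a1 it was -0.64 to 1.28 around 0.32, so both intervals include 0. The other core chains gave -0.55 for Col1a2, -0.43 for Col5a1, -0.68 for Col5a2, -0.48 for Col4a1, -0.30 for Col4a2, -0.46 for Col15a1, -0.54 for Col6a1, -0.31 for Col6a2 and -0.45 for Col6a3, and none of them passed.

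Under hormone, the Jag antibodies went with lower collagen transcripts. Of the 35 tested genes 11 were lower in Jag antibody mice than in control mice given the same hormone, and none was higher, where 0.439% of all genes tested were lower and 0.697% higher. The collagen median was -0.99 against -0.02 for all genes. The 11 consisted of 5 fibrillar chains, 1 basement membrane chain and 5 others, and 11 collagen genes had no overlap between the groups, against 2.61% of all genes in that direction. This comparison shares its control group with the hormone comparison in control mice.

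Col1a1 stood at 281, 432, 682, 761 and 544 CPM in control mice given hormone and at 129, 171, 88.4, 226 and 154 CPM in Jag antibody mice given hormone. All 5 Jag antibody mice were below all 5 controls, and the log2 fold change was -1.81 (standard error 0.41, adjusted p = 0.0179), or 3.52-fold lower. Col3a1 stood at 595, 1143, 320.4, 821 and 696 CPM in the Jag antibody mice, below the lowest control at 1522 CPM, with a log2 fold change of -1.66 (standard error 0.36, adjusted p = 0.0107). Col1a2, Col5a1 and Col5a3 were lower, with log2 fold changes of -1.46 (standard error 0.38, adjusted p = 0.0454), -1.35 (standard error 0.30, adjusted p = 0.0152) and -1.53 (standard error 0.33, adjusted p = 0.013). Col5a2 reached -1.05 (standard error 0.29, adjusted p = 0.0673) and did not pass.

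Type VI chains were lower too. Col6a1 stood at 224, 262, 367, 389 and 321 CPM in controls given hormone and 119, 141, 109.5, 176 and 125 CPM in Jag antibody mice given hormone. No values overlapped, and the log2 fold change was -1.22 (standard error 0.23, adjusted p = 0.00416). Col6a2 and Col6a3 gave -1.34 (standard error 0.26, adjusted p = 0.00516) and -1.22 (standard error 0.25, adjusted p = 0.00628). Col8a1 stood at 7.97, 15.9, 13.5, 8.21 and 10.5 CPM in controls and 3.33, 3.97, 5.50, 4.65 and 2.86 CPM in Jag antibody mice, a log2 fold change of -1.46 (standard error 0.31, adjusted p = 0.00815), and hormone comparisons of Col8a1 did not pass in either antibody group. Col16a1 fell by 1.35 (standard error 0.31, adjusted p = 0.0198). In the basement membrane class Col15a1 passed at -1.15 (standard error 0.30, adjusted p = 0.0454), while Col18a1, Col4a1 and Col4a2 did not, at -0.92 (standard error 0.25, adjusted p = 0.0578), -0.88 (standard error 0.30, adjusted p = 0.167) and -0.66 (standard error 0.27, adjusted p = 0.301).

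Few partner genes passed in that comparison. Loxl2 was the 1 called gene of 12 for processing and crosslinking, at -1.24 (standard error 0.25, adjusted p = 0.00542), and Postn (periostin) and Sparc, both matrix proteins that bind collagen, were the called pair among 12 fibril partners, at -1.10 (standard error 0.25, adjusted p = 0.0198) and -0.83 (standard error 0.19, adjusted p = 0.0222). No gene of the folding, basement membrane partner or breakdown lists passed. Summed pericyte and smooth muscle markers were lower in the Jag antibody mice without overlap, 251 to 406 CPM against 614 to 926 CPM, and 2 of those 10 markers passed, Rgs5 at -2.32 and Notch3 at -1.35. Fibroblast markers overlapped, 304 to 648 against 389 to 807 CPM, and 0 of 10 passed. The part of pericytes in the collagen difference was not tested. Leaving out 1 mouse at a time ended the call in 9 of 10 cases for Col1a2, 8 for Col15a1, 5 for Col1a1 and Col16a1, 4 for Col5a1 and 1 for Col5a3, and Col1a2 did not pass with offsets (adjusted p = 0.0916, edgeR). The count of 11 fell to 6 when control mouse 3 or 4, or Jag antibody mouse 6, 8 or 10, of the hormone groups was left out. The counts over all genes in those fits are not given here. Keeping only 7 d mice with a muscle score under 3 left 2 controls and 3 Jag antibody mice under hormone. No collagen gene passed there, and the median was -0.71. In edgeR 11 collagen genes had an unadjusted p under 0.05, with no count over all genes given here. Of all 18021 genes tested, 2 passed there.

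At 7 d without hormone the same antibody comparison gave 2 lower collagen genes and none higher, where 1.29% of all genes tested were lower and 1.21% higher. The collagen median was -0.27 against 0.05 for all genes. Col3a1 was the clearest: it stood at 645, 314, 299, 494 and 294 CPM in controls and 125, 139, 46.9, 59.8 and 149.8 CPM in Jag antibody mice. Every Jag antibody mouse was below every control, and the log2 fold change was -1.98 (standard error 0.36, adjusted p = 0.00179), or 3.93-fold lower. Col6a2 stood at 78.9, 47.6, 82.7, 82.4 and 64.5 CPM in controls and 38.3, 41.6, 28.4, 20.8 and 44.6 CPM in Jag antibody mice, with a log2 fold change of -1.04 (standard error 0.26, adjusted p = 0.0286) and again no overlap. The Col6a2 call was lost when any of 5 mice was left out, namely control mouse 1 or 4 or Jag antibody mouse 6, 8 or 9. Other core chains did not pass, among them Col1a1 at -1.17 (standard error 0.41, adjusted p = 0.11), Col5a1 at -0.92 (standard error 0.30, adjusted p = 0.0906), Col6a3 at -0.77 (standard error 0.25, adjusted p = 0.0786) and Col4a1 at -0.41 (standard error 0.30, adjusted p = 0.442). The remaining core chains, which did not pass either, had log2 fold changes of -0.90 for Col1a2, -0.37 for Col5a2, -0.36 for Col4a2, -0.69 for Col15a1, 0.09 for Col18a1 and -0.68 for Col6a1.

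The count at 7 d moved with the handling of transcript length. Length slopes ran from -0.582 to -0.0669 in control mice and -0.164 to 0.0286 in Jag antibody mice, and with length and GC offsets 7 collagen genes were lower in place of 2, against 1.55% of all genes. The 7 were Col1a1, Col3a1, Col5a1, Col6a1, Col6a2, Col6a3 and Col8a1, and the collagen median was then -0.60. Kept to the 3 controls and 3 Jag antibody mice with a muscle score under 3, no collagen gene passed in edgeR, and Col3a1 had an adjusted p of 0.147. At an unadjusted p under 0.05 there were 5 collagen genes, with no count over all genes given here at that level. Of all 18021 genes tested there, 19 passed, in place of 427 of 17079 in the main fit. Postn and Sparc were lower here too, at -1.82 (standard error 0.26, adjusted p = 7.18e-05) and -0.78 (standard error 0.19, adjusted p = 0.025), and Serpinh1, the collagen chaperone HSP47, was lower at -1.16 (standard error 0.26, adjusted p = 0.0117). The summed pericyte and smooth muscle markers again did not overlap, 228 to 451 CPM in Jag antibody mice and 645 to 1183 CPM in controls.

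At 5 d, 15 of the 35 tested collagen genes were lower in Jag antibody mice than in controls and none was higher, where 5.93% of all genes tested were lower and 2.09% higher. The collagen median was -0.98 against 0.04 for all genes. The lower genes were 6 of 10 fibrillar, 1 of 8 basement membrane and 8 of 17 other chains, but 1 collagen gene had no overlap between the groups, against 3.16% of all genes in that direction. Col1a1 stood at 342, 102, 946, 253 and 343 CPM in controls and 81.7, 129, 76.9, 90.6 and 119.8 CPM in Jag antibody mice. Control mouse 3 was far above the others and control mouse 2 fell within the Jag antibody range, with a log2 fold change of -1.99 (standard error 0.42, adjusted p = 0.00542). Col14a1 gave -2.01 (standard error 0.49, adjusted p = 0.0111), Col1a2 -1.84 (standard error 0.38, adjusted p = 0.00542), Col3a1 -1.69 (standard error 0.36, adjusted p = 0.00542) and Col6a2 -1.50 (standard error 0.27, adjusted p = 0.00199). Col6a6, a further type VI chain, was lower at -1.57 (standard error 0.48, adjusted p = 0.0368), a call lost in 7 of the 10 fits that each left out 1 mouse. Col5a1, Col5a2, Col6a1 and Col6a3 also passed, at -1.50, -1.25, -1.21 and -1.13. Col18a1 was the called basement membrane chain, at -0.83 (standard error 0.25, adjusted p = 0.0341), a call lost in 5 of the 10 fits that left out 1 mouse, whereas Col4a1 was at -0.60 (standard error 0.30, adjusted p = 0.226), Col4a2 at -0.52 (standard error 0.27, adjusted p = 0.25) and Col15a1 at -0.71 (standard error 0.30, adjusted p = 0.137).

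Skeletal muscle RNA went with that difference. The muscle score ran from 5.10 to 13.7 in controls and from -2.69 to 2.20 in Jag antibody mice, so the groups did not overlap, and 6 of the 8 muscle markers were lower in Jag antibody mice. Adding that score as a covariate left 1 collagen gene, Col6a2, in place of 15, with a collagen median of -0.86. Of all 17079 genes tested, 89 passed with the covariate in place of 1369. With only these 10 mice in the fit 6 collagen genes were lower, where 431 of all 15529 genes passed. Without control mouse 3 there were 9 collagen genes, with no count over all genes given here. Fibroblast markers were lower in 5 of 10 cases, and their summed level ran from 245 to 469 CPM in Jag antibody mice and 351 to 959 CPM in controls. Pericyte and smooth muscle markers were lower in 3 of 10 cases, with a median of -0.59, and their sums of 271 to 421 CPM in Jag antibody mice and 364 to 1035 CPM in controls overlapped. The part of fibroblasts and pericytes in the collagen difference was not tested. Of the partner lists, 7 of 12 processing and crosslinking genes were lower, including Pcolce2 at -1.84, as were 5 of 12 fibril partners, including Fmod (fibromodulin) at -2.25, and 6 of 10 elastic fibre genes. The antibody difference and the amount of muscle in the dissected tissue cannot be told apart at 5 d.

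At 15 h no collagen gene passed in either direction, where 0.234% of all genes tested were higher and 0.902% lower in Jag antibody mice. At an unadjusted p under 0.05 there was 1 collagen gene, Col12a1, where 2052 of all 17079 genes tested were also under it. DESeq2 called 1 collagen gene lower, where it called 577 of all 16415 genes, and limma called no collagen gene. The collagen median was 0.06 against -0.04 for all genes. Col1a1 stood at 55.0, 30.1, 33.4, 88.6 and 82.3 CPM in controls and 121, 67.7, 42.6, 98.5 and 89.8 CPM in Jag antibody mice, which overlapped, and its log2 fold change of 0.54 had a 95% interval of -0.25 to 1.32. For Col3a1 the interval was -0.48 to 0.88 and for Col4a1 -0.55 to 0.63. The other core chains had log2 fold changes from -0.31 for Col15a1 to 0.48 for Col1a2.

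Col12a1 at 15 h stood at 21.2, 156, 136, 27.2 and 48.9 CPM in controls and 14.3, 24.3, 48.3, 15.0 and 35.4 CPM in Jag antibody mice, with a log2 fold change of -1.50 (standard error 0.49, adjusted p = 0.119). Control mice 2 and 3 were the high ones. The same 2 libraries had summed macrophage and myeloid markers of 6275 and 3046 CPM, against 324, 299 and 786 CPM in the other controls and 289 to 566 CPM in Jag antibody mice. They also had the lowest brown adipocyte sums at that time, 8461 and 13559 CPM. Of 10 macrophage and myeloid markers 2 fell in the antibody comparison at this time, with a list median of -2.40. Fitted without control mice 2 and 3, Col12a1 was at -0.23 (standard error 0.48, adjusted p = 1), edgeR. Again no collagen gene passed, where 3 of all 17589 genes did. At an unadjusted p under 0.05 there were 0 collagen genes, with no count over all genes given here at that level. The part of myeloid cells in the Col12a1 values was not tested.

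**Figure D4:**
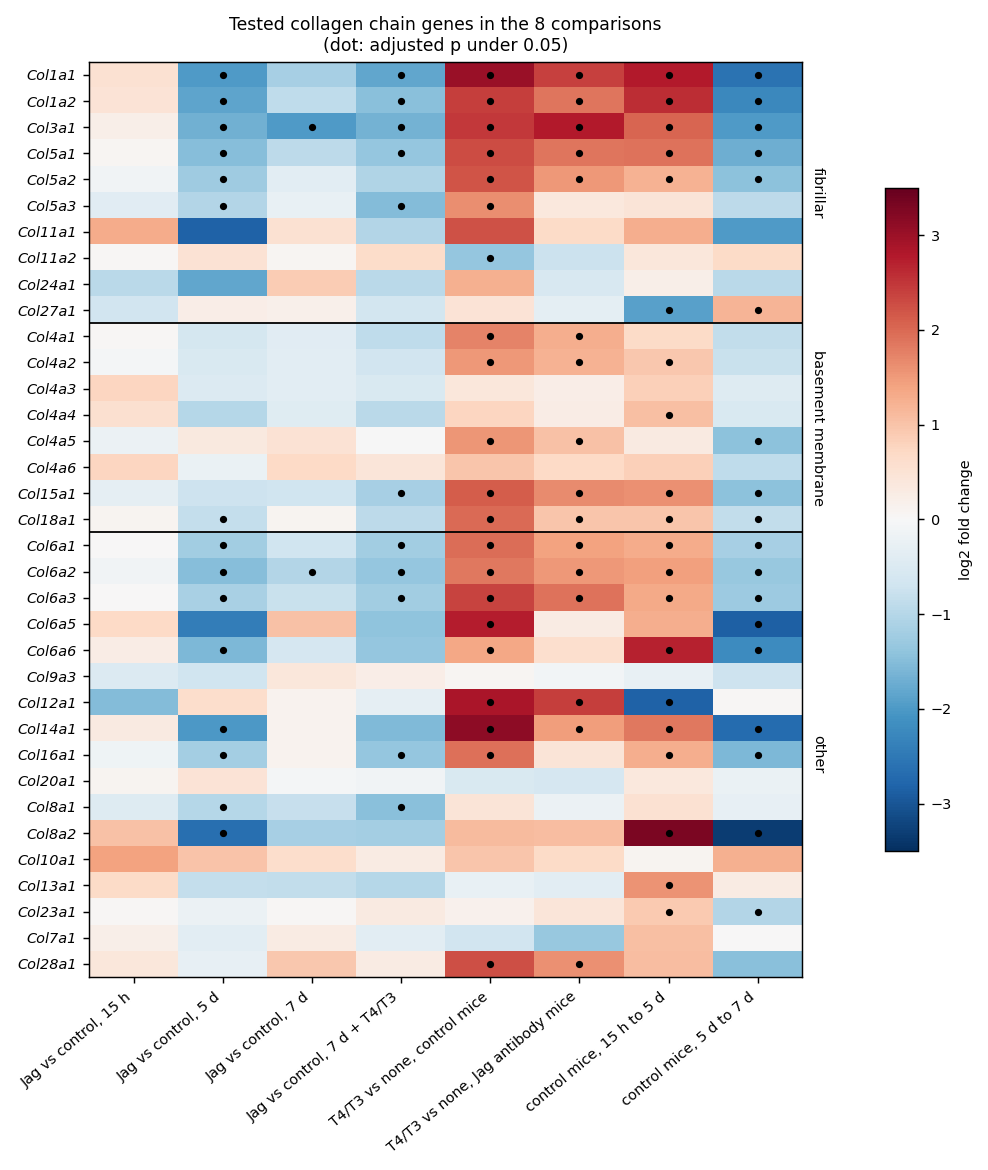
log2 fold changes of the 35 tested collagen genes (rows, by class) in the 8 comparisons of 2 groups (columns), with a dot where the adjusted p was under 0.05. Dots fill 21 cells in the column for hormone in control mice and none in the column for the antibodies at 15 h, and the Col12a1 row is red for hormone and blue from 15 h to 5 d.

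Control mice differed between collection times as well. From 15 h to 5 d, 18 collagen genes rose and 2 fell, where 16.2% of all genes tested rose and 20.1% fell, and the collagen median was 1.05 against -0.01 for all genes. Col1a1 rose by 2.78 (standard error 0.43, adjusted p = 7.84e-05), Col6a6 by 2.69 (standard error 0.50, adjusted p = 0.000299), Col1a2 by 2.59 (standard error 0.39, adjusted p = 6.53e-05) and Col3a1 by 2.05 (standard error 0.36, adjusted p = 0.000212). Col5a1 and Col14a1 rose by 1.91 (standard error 0.31, adjusted p = 0.000119) and 1.85 (standard error 0.48, adjusted p = 0.00418). Smaller rises that passed were those of Col15a1 (1.59), Col6a2 (1.42), Col6a3 (1.32), Col6a1 (1.29), Col5a2 (1.21), Col18a1 (0.97) and Col4a2 (0.95), whereas Col4a1 did not pass at 0.66 (standard error 0.30, adjusted p = 0.0837). The genes that fell were Col12a1 and Col27a1. Col12a1 stood at 21.2, 156, 136, 27.2 and 48.9 CPM at 15 h and 21.4, 4.11, 14.2, 10.4 and 4.61 CPM at 5 d, a log2 difference of -2.82 (standard error 0.52, adjusted p = 0.000283), and mouse 1 at 5 d lay just above the lowest value at 15 h. Col27a1, a fibrillar chain best known from cartilage, stood at 68.4, 82.3, 153, 82.0 and 149 CPM and then 37.7, 29.0, 31.9, 33.9 and 10.2 CPM, without overlap, with a log2 fold change of -1.90 (standard error 0.38, adjusted p = 0.000534). Of 10 fibroblast markers 5 were higher at 5 d, and of 10 macrophage and myeloid markers 8 were lower, with summed levels from 299 to 6275 CPM at 15 h and 355 to 659.7 CPM at 5 d. Without control mice 2 and 3 of the 15 h group, whose myeloid sums are given above, 17 collagen genes passed in place of 20, where 2093 of all 17589 genes tested passed in place of 6214 of 17079. Col12a1 was then at -1.49 (standard error 0.47, adjusted p = 0.0369), a smaller fall than with all mice, and Col14a1 no longer passed (adjusted p = 0.0627, edgeR). Muscle scores overlapped, -1.82 to 10.2 at 15 h and 5.10 to 13.7 at 5 d, with means of 2.49 and 9.90. With the score as a covariate 18 collagen genes passed in place of 20, where 4239 of all 17079 genes passed in place of 6214. Col14a1 did not pass in that fit. With offsets and muscle score together 15 collagen genes passed, where 2733 of all genes did, and Col18a1 did not pass. The part of myeloid cells and of muscle in these changes was not tested. The calls from 15 h to 5 d rest on a spread shared by the 8 groups. Fitted on these 10 mice alone no gene of 15305 passed in edgeR, and the 15 named collagen changes then had adjusted p of 0.0571 or more. There 19 collagen genes had an unadjusted p under 0.05, with no count over all genes given here at that level.

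From 5 d to 7 d, 17 collagen genes fell and 1 rose, where 4.42% of all genes tested fell and 4.71% rose, and the collagen median was -1.02 against 0.01 for all genes. This comparison shares the 5 d controls with the one before and with the antibody comparison at 5 d, so a high or low value in those 5 mice enters all 3. Col14a1 had a log2 fold change of -2.69 (standard error 0.50, adjusted p = 0.00207), and Col1a1 gave -2.59 (standard error 0.42, adjusted p = 0.000789). Col1a2, Col6a6, Col3a1 and Col5a1 fell as well, with -2.26 (standard error 0.39, adjusted p = 0.00141), -2.20 (standard error 0.49, adjusted p = 0.00683), -1.99 (standard error 0.36, adjusted p = 0.00179) and -1.70 (standard error 0.30, adjusted p = 0.00172). The other core chains that passed were Col5a2 (-1.44), Col15a1 (-1.44), Col6a2 (-1.33), Col6a3 (-1.28), Col6a1 (-1.17) and Col18a1 (-0.86). The Col18a1 call was lost in 6 of 11 other settings and in 3 of the 10 fits that left out 1 mouse. Col4a1 and Col4a2 did not pass, at -0.85 (standard error 0.30, adjusted p = 0.0695) and -0.78 (standard error 0.28, adjusted p = 0.0668). Col27a1 was the gene that rose, by 1.20 (standard error 0.37, adjusted p = 0.0388), and leaving out 1 mouse ended that call in 7 of 10 cases. With these 10 mice alone 7 collagen genes fell and none rose, where 161 of all 15233 genes passed. Fibroblast markers were lower in 8 of 10 cases from 5 d to 7 d. The muscle scores, 5.10 to 13.7 at 5 d and -1.31 to 11.1 at 7 d, overlapped, with means of 9.90 and 3.44. Control mice 1, 2 and 3 at 7 d lay below every mouse at 5 d. With the score as a covariate 13 collagen genes passed in place of 18, where 382 of all 17079 genes passed in place of 1559. The part of muscle in this change was not tested.

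Chains that assemble into the same protein were also compared as ratios, on a per length scale. The log2 ratio of Col4a1 to Col4a2 averaged 0.70 ± 0.23 (SD over 40 mice), with group means from 0.54 to 1.02. Col6a1 to Col6a2 averaged 0.24 ± 0.19. Type I is built from a pair of alpha 1 chains and 1 alpha 2 chain, yet Col1a1 was below Col1a2 in all 40 mice, with a log2 ratio of -1.13 ± 0.33 and group means from -1.59 in Jag antibody mice at 7 d to -0.71 in control mice given hormone. Levels between genes depend on the mRNA length used and on GC content, so this order may not hold with other transcript models. Between chains of different proteins, the log2 ratio of Col3a1 to Col4a1 averaged 0.68 ± 0.99. It ran from -2.67 to -0.03 in Jag antibody mice at 7 d and from 1.51 to 2.20 in control mice at 5 d.

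The 9 members with too few counts to test were Col2a1, Col9a1, Col9a2, Col6a4, Col17a1, Col19a1, Col22a1, Col25a1 and Col26a1, none with more than 51 counts in any mouse. Col2a1, the main collagen of cartilage, had 21 counts over all 40 mice and none in 30 of them. Of the 7 cartilage markers, Matn1 was at 0 in 34 mice, Matn3 in 36, Acan in 16 and Hapln1 in 12. Comp and Chad were at 0 in 2 mice each and Sox9 in 1, with median counts of 6, 20 and 31.5. The summed level of these last 3, the cartilage markers with enough counts to be tested, did not exceed 11.0 CPM in any mouse. Among tested members the least abundant were Col10a1, a cartilage network chain, with 233 counts over all 40 mice, Col8a2, a short chain collagen, with 275, and Col4a6 with 297. Each was at 0 in 3 or 4 mice. At 5 d Col8a2 stood at 0.150, 0.407, 3.99, 0.694 and 0.755 CPM in controls and 0.107, 0.186, 0.231, 0.257 and 0.160 CPM in Jag antibody mice. Control mouse 3 stood apart, with 116 of the 275 counts. The log2 difference of -2.65 (standard error 0.72, adjusted p = 0.022) passed in edgeR, and without that mouse it was -1.38 (standard error 0.68, adjusted p = 0.269) and did not pass.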

How the data were processed

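RNA of brown adipose tissue from 40 mice was sequenced on an Illumina HiSeq instrument, per the labels' protocols. The authors deposited raw counts per gene and FPKM values per gene, and the submitters' processing notes name GSNAP and limma. The genome build and the strand setting are not given in the sources used here. Counts summed to 12217623 to 36511893 per mouse. The main test on the deposited counts used edgeR 4.0.16 (R 4.3.3, TMM scaling, filterByExpr, robust quasi-likelihood fit over all 40 mice, Benjamini-Hochberg adjustment over 17079 genes, threshold 0.05). CPM are TMM-scaled and log2 CPM use a prior count of 2. Levels between genes are CPM per kb of the GENCODE M21 principal mRNA (GRCm38). Intervals are 95% and were computed as the fold change ± 1.96 standard errors. The deposited FPKM values served 1 alternative, limma 3.58.1 on log2(FPKM + 1). The other alternatives were DESeq2 1.42.0, RLE size factors, no low-count filter, a fit on only the groups compared, a muscle covariate, length and GC offsets, a replicate block and fits that each omit 1 mouse. Combined offsets and muscle score, the fit without the 3 libraries of low length slope, the fit on 7 d mice with a muscle score under 3, and the fits without 15 h control mice 2 and 3 or, for Col8a2, without 5 d control mouse 3 were chosen after seeing the data. The fit was tested on simulated data, where it recovered a minority of the true changes. With a length trend added to those data it made many false calls, nearly all of which went with the offsets. The added trend followed the same length measure that the offsets fit. Its removal was thus built in and does not show that the offsets suit the real libraries.

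The members, gene lists and tests were chosen with earlier results of these data known. The 12 core chains are named where a comparison discusses them, with up to 6 called members per direction of the largest change and a mean log2 CPM of at least 1, and up to 3 called genes per list. Members named outside that rule, such as those of low counts, those of the interaction and those that did not pass beside a called relative, were chosen after their values were seen. The labels do not say that mice were housed or dissected separately, so p-values measure the spread between these mice. Promoter sequences are from RefSeq (GRCm38.p6).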

Additional observations from a re-analysis of the deposited data

Results flagged for a closer look

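In 4 of 104 groups of 5 mice examined for the 12 core chains and the collagen share of counts, 1 mouse lay far from the other 4 by Dixon's test, where about 5.2 would be flagged by chance at 1 in 20. Col4a2 in control mouse 2 at 5 d was at a log2 CPM of 7.24, below the nearest mouse at 8.40. Col1a1 in control mouse 2 at 7 d was at 5.64, below the nearest at 6.10. Col5a1 in control mouse 1 given hormone was at 6.49, below the nearest at 7.17. Col6a3 in Jag antibody mouse 9 given hormone was at 8.21, above the nearest at 7.48.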

How the results depend on the processing

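At 15 h DESeq2 called 1 collagen gene in place of 0, where it called 577 of all 16415 genes. At 5 d the 15 became 6 with only the groups compared, 1 with the muscle score as a covariate and 1 with offsets and muscle score together. Of all genes, 1369 passed in the main fit and 431, 89 and 112 in these fits, in that order. At 7 d the 2 became 1 without the low-count filter, 1 with only the groups compared, 1 with limma, 7 with offsets, 8 with offsets and muscle score, and 0 among mice with a muscle score under 3. Of all genes, 427 passed in the main fit and 191, 53, 546, 553, 613 and 19 in these fits, in that order. The fit on mice with a muscle score under 3, which keeps fewer mice, also gave 0 in place of 11 for the antibodies under hormone and 8 in place of 16 for hormone in Jag antibody mice. There 2 and 288 of all 18021 genes passed. With only the groups compared the time comparisons gave 0 in place of 20 from 15 h to 5 d and 7 in place of 18 from 5 d to 7 d. Of all genes, 0 of 15305 and 161 of 15233 passed in these fits. For the other settings the cause was not tested. Fits that each left out 1 mouse gave 0 to 1 at 15 h, 9 to 17 at 5 d, 1 to 3 at 7 d, 6 to 13 for the antibodies under hormone, 19 to 22 for hormone in control mice, 12 to 16 for hormone in Jag antibody mice, 19 to 26 and 14 to 23 for the time comparisons, and 0 for the interaction. The 15 h count was 1 without control mouse 1 or 4. Counts over all genes in these fits are not given here, so a change particular to collagen cannot be read from them. For single named genes, 796 values under other settings kept their call and 92 lost it, leaving out a mouse gave 737 and 63, and none changed direction.

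Control mice share the numbers 1 to 5 and Jag antibody mice 6 to 10. Same-numbered mice did not deviate together in every pair (lowest correlations -0.239, -0.345, -0.178 and -0.620), and 1, 1, 2 and 2 of 5 mice correlated best with their own number. With the replicate block the collagen counts were 21 for hormone in control mice and 15 for hormone in Jag antibody mice. They were 20 and 19 for the time comparisons and 0 for the interaction. Of all 17079 genes, 7424, 1496, 5939, 1770 and 0 passed in these fits, in that order. With the block and offsets the collagen counts were 19, 15, 21, 17 and 0, where 6688, 1908, 4337, 2207 and 0 of all genes passed.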
